A study of Mus musculus with 2 samples.

Results

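The 7 genes described here encode a neuropeptide and the parts of 3 kinds of neuropeptide receptor: Calca, which encodes calcitonin gene-related peptide (CGRP) and calcitonin, Calcrl, Ramp1, Ramp2, Ramp3, Nmur1 and Vipr2. They were chosen by symbol, out of 26981 genes found in 1 or both libraries, and all 7 were read in each library. No adrenergic receptor is among them, although the set had been proposed under a neuropeptide and adrenergic name. The cells were CD45+ cells enriched with magnetic beads from the visceral (epididymal) adipose tissue of 15-week-old wild-type C57BL/6 mice kept free of specific pathogens. One group drank normal water (NW) and the other received antibiotics (ABX), given in the study as ampicillin, vancomycin, streptomycin and colistin in the drinking water. Single-cell RNA-seq with unique molecular identifiers (UMIs) and antibody tags (10 in the files, 8 in the study's methods) was made with the BD Rhapsody system, as 1 library per group. How many mice gave each library is not given in the sources used here.

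Of 17662 barcodes in NW and 17785 in ABX, 12474 and 12724 held at least 500 gene UMIs and 200 genes with at most 25% mitochondrial UMIs, and were read as cells. The median cell held 5092 UMIs in NW and 3846 in ABX, so shares of cells with a UMI of a gene are given with the share expected after thinning each cell to 1000 UMIs. Levels are counts of a gene's UMIs per 1000000 UMIs of all genes (CPM), summed over the cells of a class, with exact 95% Poisson intervals in square brackets. Ratios are log2 of ABX over NW with exact intervals. With 1 library per group there is no test of the antibiotics: every interval covers counting error only, and the library, the mice and the treatment cannot be told apart. A level per class does not depend on how many cells the class holds.

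CGRP is a sensory neuropeptide best known from nociceptive neurons that also has effects on immune cells. Its receptor is made of CALCRL, a G protein-coupled receptor of the calcitonin family, together with RAMP1, an accessory protein that carries CALCRL to the cell surface and sets its ligand. With RAMP2 or RAMP3 in the place of RAMP1, CALCRL becomes a receptor for adrenomedullin, a peptide with a known part in blood and lymphatic vessels. NMUR1 binds neuromedin U and VIPR2 binds vasoactive intestinal peptide. Both are known on group 2 innate lymphoid cells (ILC2), tissue-resident lymphocytes that make IL-5 and IL-13 and are abundant in adipose tissue. CALCRL and VIPR2 signal mainly through cyclic AMP, which acts on promoters through cyclic AMP response elements (CRE).

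The upstream sequences of Calca and Ramp3 are shown because these members were detected in the same ILC2-like cells, as described below. Both run 5′ to 3′ over the 250 bases before the start site of the RefSeq gene on GRCm38.p6, at chr7:114636358-114636607 (minus strand) for Calca and chr11:6658283-6658532 (plus strand) for Ramp3. Capitals mark a core CRE motif, spelled TGACG and searched on both strands.
Calca: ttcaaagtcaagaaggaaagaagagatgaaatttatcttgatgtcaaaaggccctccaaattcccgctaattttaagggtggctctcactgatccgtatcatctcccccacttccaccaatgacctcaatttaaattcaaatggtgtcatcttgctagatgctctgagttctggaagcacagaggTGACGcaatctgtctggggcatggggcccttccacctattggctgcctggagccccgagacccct
Ramp3: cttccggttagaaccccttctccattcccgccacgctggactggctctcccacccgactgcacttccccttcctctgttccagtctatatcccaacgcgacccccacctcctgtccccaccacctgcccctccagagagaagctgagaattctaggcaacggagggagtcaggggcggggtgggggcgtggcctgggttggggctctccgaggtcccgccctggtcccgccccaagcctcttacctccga
The Calca window held 1 core CRE motif, whose first base lay 65 bases before the start, and the Ramp3 window held none. This motif was present in 17.8% of 32851 promoter windows of this length. The Calca window also held 1 GATA motif (AGATAA, either strand), which 9.99% of windows hold, and neither window held the AP-1 motif TGANTCA, present in 6.75%. These matches describe the letters of the windows only.

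In the annotation (GRCm38, GENCODE M21), Calca lies on chromosome 7 at 114631478-114636357 (minus strand), Ramp3 on chromosome 11 at 6658521-6677475 and Ramp2 on chromosome 11 at 101246028-101259546. The annotated exons of Ramp2 share 1103 bases with Vps25 on the same strand, so reads there could belong to either gene. Ramp3 shares 107 exonic bases and Vipr2 596 with a gene on the opposite strand. UMIs were deposited per gene, so the calcitonin and CGRP splice forms of Calca cannot be told apart.

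The kept cells held 1242 Calca UMIs in NW and 2467 in ABX, 1807 and 1573 of Calcrl, 3001 and 2961 of Ramp1, 398 and 997 of Ramp2, 1966 and 1676 of Ramp3, 84 and 121 of Nmur1, and 135 and 150 of Vipr2. Nmur1 and Vipr2 thus rested on few molecules. Among the barcodes that failed the filter, at most 0.983% held a UMI of any single member. Cell classes were rebuilt by clustering and named from marker genes, as "ILC2-like" and so on, and 16 named classes held at least 50 cells in each library. ILC2-like cells were 787 of the NW cells (6.31%) and 1263 of the ABX cells (9.93%), with median depths of 3985 and 3442 UMIs. A UMI of Il1rl1 was seen in 93.4% and 94.5% of them and of Gata3 in 87.2% and 85.4%, against at most 19.5% and 12.9% of all other cells.

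**Figure D1:**
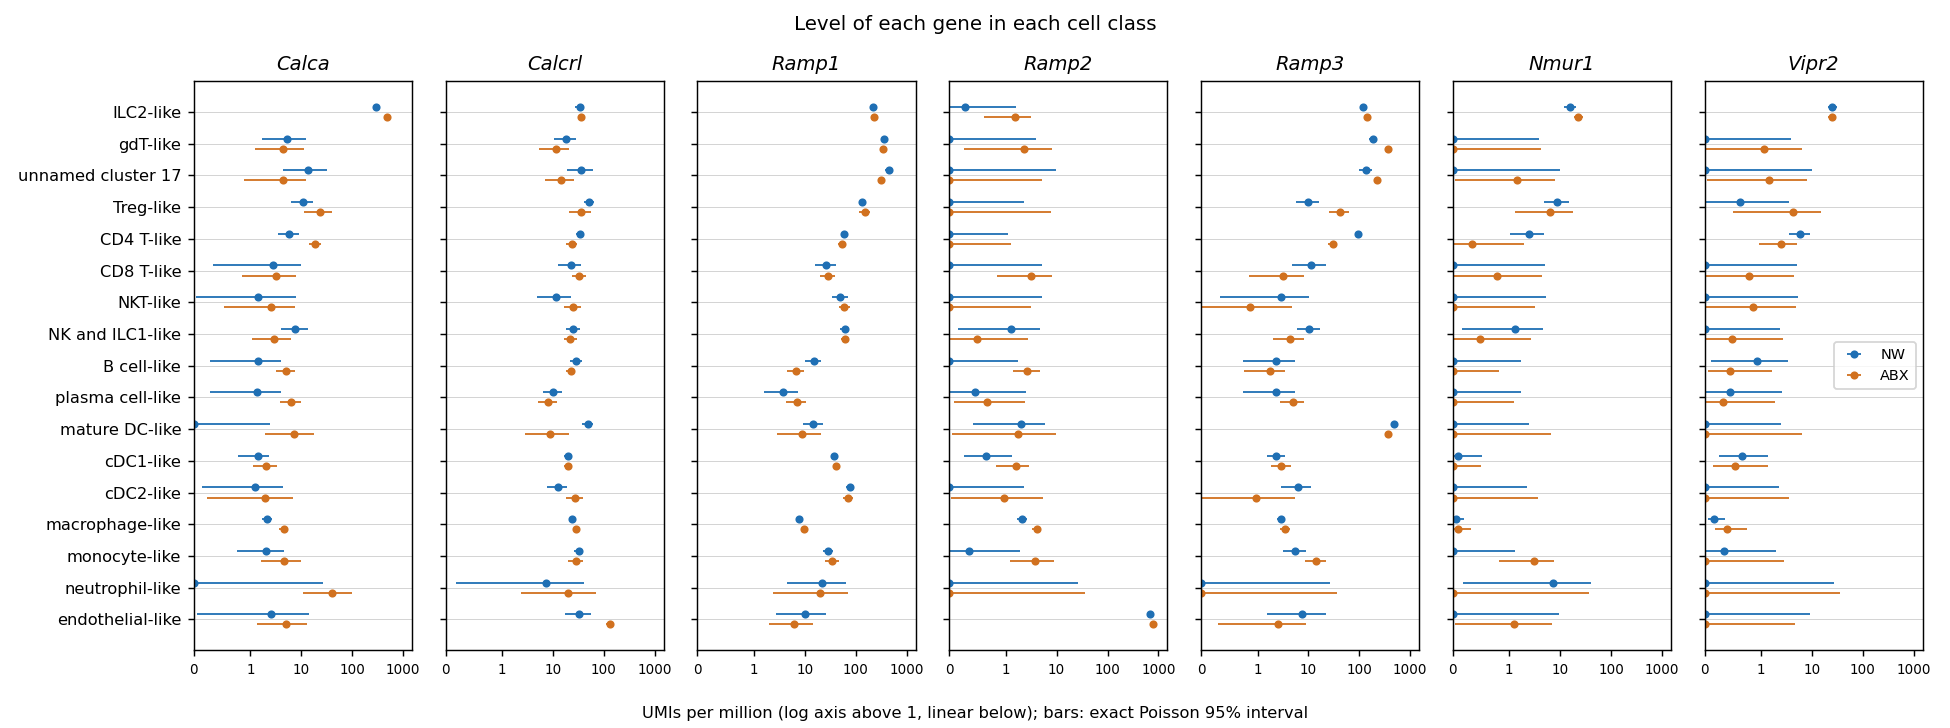
Level of each member (CPM, on an axis that is linear below 1 and logarithmic above) in 17 groups of cells, the 16 named classes and the unnamed cluster 17, in the NW and ABX libraries, with exact Poisson intervals as bars. Calca stood highest in ILC2-like cells, Ramp2 in endothelial-like cells, and Nmur1 and Vipr2 in ILC2-like cells, in both libraries.

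Calca was carried almost wholly by ILC2-like cells. They held 1028 of its UMIs in NW, 82.8% of the library's, and 2144 in ABX, 86.9%. The level was 294 CPM [276, 313] in NW and 472 [453, 493] in ABX, and a Calca UMI was seen in 24.7% and 32.1% of cells. After thinning, these shares were 14.9% and 20.1%. In macrophage-like cells, which should lack the gene, the level was 2.14 and 4.55 CPM and the share 0.798% and 1.38%, at higher median depths of 5640 and 4090 UMIs, so the ILC2-like share stood above this background. The next class in order was the unnamed cluster 17 in NW with 13.4 CPM, and neutrophil-like cells in ABX with 39.3 CPM, all 4 of whose UMIs lay in 1 cell. The next 3 classes below these had overlapping intervals in each library.

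The Calca level of ILC2-like cells was 1.61-fold higher in the ABX library, a log2 ratio of 0.68 [0.58, 0.79]. Of the 6 members with at least 100 UMIs in this class over both libraries, Calca alone differed by 1.5-fold or more, and none was lower by that much. Under some of the alternatives given at the end, the Calca difference fell short of 1.5-fold. Over the 8197 genes counted the same way, 2.01% were that much higher and 4.44% that much lower in ABX. Calca was also higher in ABX in classes where it was scarce. In macrophage-like cells it went from 2.14 to 4.55 CPM, a log2 ratio of 1.09 [0.65, 1.54]. In CD4 T-like cells it went from 5.80 to 18.6 CPM, a log2 ratio of 1.68 [0.91, 2.52], on 19 and 54 UMIs, of which 27 in ABX lay in 1 cell. In B cell-like cells the ratio was 1.88 [0.15, 4.26], on 3 and 23 UMIs, and plasma cell-like cells had 3 and 19 UMIs, 14 of the 19 in 1 cell. Levels in these classes were at most 18.6 CPM.

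Calca was spread unevenly among ILC2-like cells. In NW, 593 of 787 cells held no Calca UMI, 82 held 1 or 2, 87 held 3 to 9 and 25 held 10 or more. In ABX, the same counts were 857, 193, 148 and 65 of 1263 cells. The richest cell held 47 UMIs in NW and 55 in ABX, and the 79 richest cells of NW and 127 of ABX (1 in 10) held 78.0% and 73.0% of the class's Calca UMIs. The share of cells with 10 or more UMIs was 3.18% in NW and 5.15% in ABX.

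Clustered again on their own, the ILC2-like cells split into 3 second-level clusters, all with Calca. The levels were 289 CPM in NW and 439 in ABX for the largest, 431 and 563 for the next listed, and 246 and 385 for the third. The log2 ratios within them were 0.60, 0.39 and 0.65. The libraries differed in makeup: the cluster richest in Calca was 13.3% of the ILC2-like cells in NW and 32.1% in ABX. With both libraries weighted to the same makeup, the log2 ratio was 0.54.

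Among ILC2-like cells, Ramp3 was detected more often in those that also held Calca. A Ramp3 UMI was found in 88 of 194 Calca-positive cells in NW (45.4%) and in 82 of 593 Calca-negative cells (13.8%). In ABX it was found in 162 of 406 (39.9%) and 110 of 857 (12.8%). The exact binomial intervals of the 2 shares did not overlap in either library, at 38.2% to 52.6% against 11.2% to 16.9% in NW and 35.1% to 44.8% against 10.7% to 15.3% in ABX. Median depths of the Calca-positive and Calca-negative cells were close, at 3827 and 4032 UMIs in NW and 3549 and 3395 in ABX.

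The Ramp3 level was 313 CPM in Calca-positive and 54.1 in Calca-negative ILC2-like cells of NW, a log2 ratio of 2.53 [2.23, 2.83]. In ABX the levels were 253 and 86.4 CPM, a log2 ratio of 1.55 [1.32, 1.78]. By this ratio Ramp3 ranked 1 of 7735 genes in NW and 8 in ABX. Genes at least 1.5-fold higher in Calca-positive cells made up 5.03% of those counted in NW and 2.56% in ABX, and genes as much lower 8.07% and 4.63%. The ratio was smaller in ABX, where by CPM Calca-negative cells held more Ramp3 and Calca-positive cells less. The share of Calca-negative cells with a Ramp3 UMI was not higher there, at 13.8% in NW and 12.8% in ABX.

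The share of cells with Ramp3 was higher the more Calca a cell held. In NW it was 13.8% with no Calca UMI, 36.6% with 1 or 2, 50.6% with 3 to 9 and 56.0% with 10 or more. In ABX the same shares were 12.8%, 30.6%, 42.6% and 61.5%. The association held in each second-level cluster, with log2 ratios of 2.49, 3.01 and 2.52 in NW and 1.55, 1.70 and 1.53 in ABX. It also held with Calca-negative cells weighted to the depths of the positive ones (2.37 and 1.56), and among cells with no UMI of Cd3e, Cd3d or Cd3g, subunits of the T cell receptor complex (2.42 and 1.39).

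**Figure D2:**
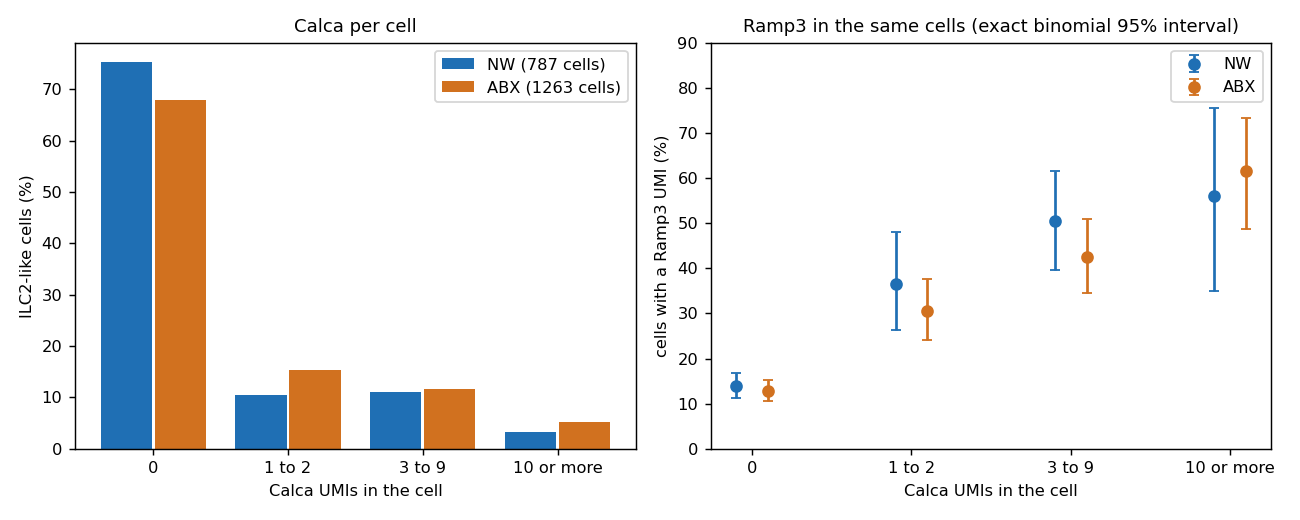
The left panel gives the percent of ILC2-like cells by the number of Calca UMIs in the cell, and the right panel the percent of those cells with a Ramp3 UMI, in NW and ABX, with exact binomial intervals as bars on the right. The share goes from 13.8% with no Calca UMI to 56.0% with 10 or more in NW and from 12.8% to 61.5% in ABX.

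The other receptor genes did not share this pattern. Between Calca-positive and Calca-negative ILC2-like cells, the log2 ratio of Calcrl was 0.02 [-0.65, 0.65] in NW and 0.18 [-0.31, 0.66] in ABX. That of Ramp1 was -0.32 [-0.58, -0.06] and -0.01 [-0.20, 0.18]. The intervals for Nmur1 and Vipr2 spanned 0 in both libraries and were wider, reaching from -0.70 to 1.15 for Nmur1 in NW.

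Calca-positive T cells were rare. Among CD4 T-like cells, 3 of 9 Calca-positive cells in NW and 7 of 13 in ABX held Ramp3, against 115 of 689 and 42 of 649 of the others. Among Treg-like cells, the counts were 1 of 6 and 3 of 4, against 6 of 394 and 8 of 160. In NW the exact intervals overlapped in both classes, with a lower bound of 7.49% in the Calca-positive against an upper bound of 19.7% in the other CD4 T-like cells. In ABX they did not, at 25.1% to 80.8% against 4.70% to 8.65% for CD4 T-like and 19.4% to 99.4% against 2.18% to 9.61% for Treg-like cells. An Il1rl1-rich second-level cluster of CD4 T-like cells, described below, held 13 of their 19 Calca UMIs in NW and 35 of 54 in ABX. Its Ramp3 level was 242 and 73.2 CPM, against 30.1 and 21.5 in the larger cluster. The parts of this makeup and of doublets in the T cell shares were not tested.

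The 10 genes highest in Calca-positive ILC2-like cells by the NW ratio were Ramp3, Jag1, Tnfrsf9, Eml5, Crem, Jcad, Daam1, Ret, Fosl2 and Prelid2. All 10 were higher in the ABX library too, 8 of them by at least 1.5-fold, with a median ABX log2 ratio of 1.53. Crem encodes a transcription factor of the cyclic AMP response and stood at 316 CPM against 106 in NW and 328 against 108 in ABX. Tnfrsf9 (4-1BB), a costimulatory receptor of activated lymphocytes, had log2 ratios of 1.75 and 2.52. Jag1, a Notch ligand, had 1.85 and 2.002, and Ret, the receptor tyrosine kinase for glial-derived neurotrophic factors, had 1.45 and 1.66. Fosl2, an AP-1 subunit, was the most abundant of the 10 and had 1.42 and 1.52.

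The 10 lowest by the NW ratio included Sema6d, Entpd1, Vcam1, Mt2, Mef2c, Tfpi, Lyve1, Cd79a and Kctd18. Of the 10, 7 were lower in ABX, 4 by at least 1.5-fold, with a median of -0.46. They include Lyve1, a marker of some tissue macrophages and of lymphatic endothelium, and Cd79a, a B cell receptor subunit, which ILC2 are not known to express. Lyve1 was at 38.3 CPM in Calca-positive and 172 in Calca-negative cells of NW, and at 35.8 and 45.9 in ABX. All 11 macrophage markers used for naming were lower in Calca-positive cells of both libraries, with summed levels of 1226 CPM against 2468 in NW and 972 against 1341 in ABX, beside 18867 and 16814 in macrophage-like cells. The part of such RNA in these ratios was not tested. Ramp3 itself was near 3 CPM in macrophage-like cells.

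Of 20 genes on a list of ILC2 markers, cytokines and activation genes, 17 had at least 50 UMIs in ILC2-like cells of both libraries. In NW, 3 were at least 1.5-fold higher in Calca-positive cells (Icos, Pdcd1 and Il17rb), beside 5.03% of all genes, and 2 lower (Csf2 and Il5), beside 8.07%. In ABX, 3 were higher (Pdcd1, Icos and Il5), beside 2.56%, and 1 lower (Il18r1), beside 4.63%. The list's median was 0.10 in NW and 0.05 in ABX, beside 0.01 and -0.02 over all genes counted. Icos, a costimulatory receptor, and Pdcd1, the checkpoint receptor PD-1, were thus on the higher side in both libraries, at log2 ratios of 1.27 and 0.74 in NW and 1.15 and 1.64 in ABX. Il5 was at 41.9 CPM against 67.6 in NW and 23.2 against 12.9 in ABX, opposite in direction. The surface antibody CD25 (IL-2 receptor) had medians of 35 UMIs in both kinds of cell in NW and 43 and 40 in ABX.

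Ramp1, the accessory protein of the CGRP receptor, stood highest in gamma-delta T (gdT)-like cells, with 358 CPM [321, 398] in NW and 337 [300, 377] in ABX, and in the unnamed cluster 17, with 447 and 316 CPM. That cluster held 88 and 207 cells, of which 89.8% and 87.4% had a UMI of Cd3e and 86.4% and 86.5% of Il18r1. The 2 groups of cells had overlapping intervals in each library. ILC2-like cells followed with 221 CPM in NW and 229 in ABX, apart from their neighbours in the order, and a Ramp1 UMI was seen in 50.1% and 47.9% of them. Treg-like cells had 131 and 149 CPM and cDC2-like cells, which are not lymphocytes, came next with 76.6 and 70.8. NK and ILC1-like, CD4 T-like and NKT-like cells lay between 49.5 and 61.5 CPM, and cDC1-like cells had 37.9 and 41.0. The NK and ILC1-like class was not uniform. A cluster within it with Xcl1 and Klrc1 among its leading genes had 161 CPM in NW and 126 in ABX. Another, with Gzma and Eomes among them, had 28.6 and 30.9. Levels were low in B cell-like (14.8 and 6.67 CPM), macrophage-like (7.64 and 9.46) and plasma cell-like cells (3.67 and 6.97).

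The Ramp1 level differed little between the libraries in ILC2-like and gdT-like cells, but not in all groups rich in it. The log2 ratio was 0.05 [-0.08, 0.19] in ILC2-like cells, -0.09 [-0.31, 0.14] in gdT-like cells and 0.18 [-0.22, 0.58] in Treg-like cells. Within the larger Treg-like second-level cluster, with 330 cells in NW and 97 in ABX, it was 0.46 [0.03, 0.88]. In the smaller one, with 70 and 67 cells and a lower level, it was 0.68 [-0.81, 2.23]. The Treg-like value thus also carries this change in makeup. In the unnamed cluster 17 the log2 ratio was -0.50 [-0.79, -0.20]. In CD4 T-like cells it was -0.12 [-0.43, 0.20], while in macrophage-like cells, where the level was low, it was 0.31 [0.04, 0.57]. In those macrophage-like cells 2 of the 5 members counted were at least 1.5-fold higher in ABX, Calca and Ramp2, beside 5.04% of 11142 genes, and none was lower, beside 1.53%. Each of the pair had a UMI in at most 1.46% of those cells, and the part of background RNA in their ratios was not tested.

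Among CD4 T-like cells, a second-level cluster rich in Il1rl1, which encodes the receptor for IL-33 (76.2% of cells in NW, 50% in ABX), held 97.2 CPM of Ramp1 in NW and 98.7 in ABX. The larger second-level cluster held 32.1 and 34.8 CPM. The same cluster was the one with most Ramp3, as follows.

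Ramp3 stood highest in mature dendritic cell (DC)-like cells, with 489 CPM [454, 526] in NW and 373 [324, 427] in ABX. A UMI was seen in 51.4% and 41.9% of these cells. The gdT-like cells came next, at 183 CPM [157, 212] in NW and 361 [322, 402] in ABX, where their interval overlapped that of the mature DC-like cells. The unnamed cluster 17 had 134 and 226 CPM, ILC2-like cells 116 and 142, and macrophage-like cells 2.90 and 3.49. Endothelial-like cells had 3 Ramp3 UMIs in NW and 2 in ABX.

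The Ramp3 ratios of the T cell classes pointed in opposite directions. In gdT-like cells the log2 ratio of ABX over NW was 0.98 [0.71, 1.26], and the thinned share of cells went from 15.6% in NW to 26.4% in ABX. The class also differed in makeup, with Trdv4, a delta chain segment, in 62.8% of cells in NW and 34.7% in ABX, Blk in 65.7% and 50% and Il17a in 5.86% and 0.347%. The part of this in the Ramp3 ratio was not tested. In the unnamed cluster 17 the log2 ratio was 0.75 [0.28, 1.24]. In CD4 T-like cells it was -1.67 [-2.03, -1.32], with 313 UMIs in 118 cells of NW and 87 UMIs in 49 cells of ABX. With clusters built from RNA alone the CD4 T-like ratio was -0.77. The difference between the ratios of these classes was not tested. In gdT-like cells 1 of 2 members counted was at least 1.5-fold higher in ABX, beside 2.67% of all genes, and 0 were as much lower, beside 2.19%. In cluster 17 it was 1 of 2 beside 3.18%, and 0 beside 2.8%. In CD4 T-like cells 0 of 3 members were higher, beside 3.24%, and 1 was lower, beside 4.6%.

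Most of the CD4 T-like Ramp3 lay in the Il1rl1-rich cluster, which held 249 of the 313 UMIs in NW and 43 of 87 in ABX. Its level was 242 CPM [213, 274] in NW and 73.2 [52.9, 98.5] in ABX, while the larger cluster had 30.1 and 21.5. Of 2 members counted in the Il1rl1-rich cluster, 0 were higher, beside 3.68% of all genes, and 1 was lower, beside 6%. The Il1rl1-rich cluster held 231 cells in NW and 130 in ABX, and its own share of Il1rl1-positive cells was lower in ABX, as given above. Whether its makeup accounts for the ratio was not tested. Treg-like cells had 16 Ramp3 UMIs in 7 cells in NW and 20 UMIs in 11 cells in ABX, on 400 and 164 cells. These gave 9.96 and 41.4 CPM, a log2 ratio of 2.06 with an interval above 0, on fewer than the 100 UMIs asked of a counted gene. The 1 member counted in Treg-like cells, Ramp1, did not reach a 1.5-fold difference, beside 4.93% of all genes higher and 6.89% lower.

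In ILC2-like cells the Ramp3 log2 ratio was 0.29 [0.11, 0.47], and the share of cells with a UMI was 21.6% in NW and 21.5% in ABX. In mature DC-like cells it was -0.39 [-0.62, -0.17], on 179 and 74 cells. Over all DC-like cells it was -1.10, a value that also carries the smaller share of mature cells among the ABX DC. In mature DC-like cells the 1 member counted, Ramp3, did not reach 1.5-fold, beside 3.16% of all genes higher and 4.83% lower. Over all DC-like cells 0 of 3 members were higher, beside 1.93%, and 1 was lower, beside 1.97%.

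**Figure D3:**
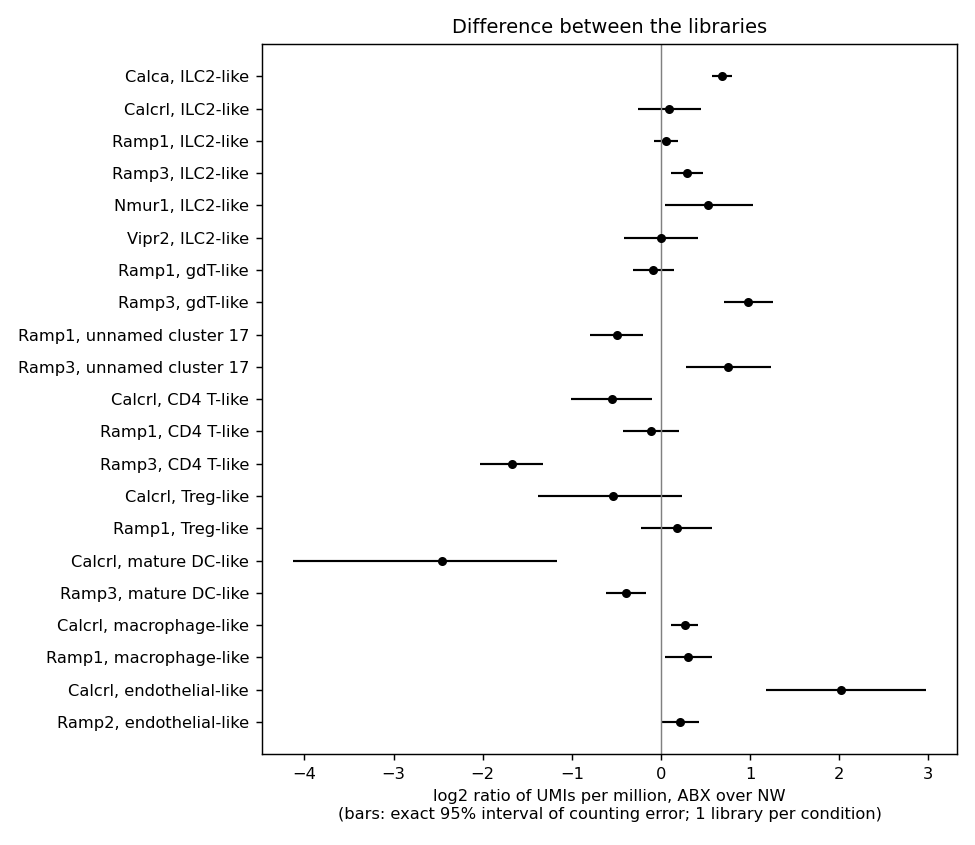
Log2 ratio of ABX over NW for members in the cell classes described in the text, with exact intervals for counting error as bars and a line at 0. Calca in ILC2-like cells (0.68), Ramp3 in gdT-like cells (0.98) and Calcrl in endothelial-like cells (2.02) lie above 0, and Ramp3 in CD4 T-like cells (-1.67) and Calcrl in mature DC-like cells (-2.46) lie below.

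Ramp2, the adrenomedullin accessory protein of vessels, was found in endothelial-like cells and little elsewhere among the classes with 50 cells. These cells remained after the CD45 enrichment, 70 in NW and 149 in ABX, and a UMI of Cdh5 (VE-cadherin) was seen in 75.7% and 83.2% of them. The Ramp2 level was 667 CPM [589, 752] in NW and 774 [715, 837] in ABX, from 265 and 626 UMIs, which made up 66.6% and 62.8% of the libraries' Ramp2. The next class, macrophage-like cells, had 2.11 and 4.11 CPM. Smaller stromal classes also held it, with 133 and 352 CPM in 16 and 40 mural-like cells and 118 CPM in the 85 fibroblast-like cells of ABX. CD4 T-like and Treg-like cells had 0 UMIs in both libraries, which for the 698 CD4 T-like cells of NW allows up to 0.527% of cells with a UMI at the 95% bound.

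The log2 ratio of Ramp2 in endothelial-like cells was 0.22 [0.01, 0.43], with a UMI in 72.9% and 70.5% of cells and 44.2% and 43.3% after thinning. The ratio turned to -0.0037 with clusters built from RNA alone and was 0.95 with 50 principal components in the clustering. A Car4-rich second-level cluster (Car4 in 74.5% and 70.7% of cells) had 697 and 684 CPM, and a Vwf-rich one (Vwf in 68.4% and 56% of cells) had 615 and 897. More of the library's Ramp2 UMIs in ABX went with more endothelial-like and stromal cells in that library.

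Calcrl, the receptor that all 3 RAMP proteins pair with, was spread over many classes at low level. In NW it ranged near the top from 51.0 CPM in Treg-like and 48.3 in mature DC-like cells to 33.2 in ILC2-like and 23.0 in macrophage-like cells, and each of the first 5 classes overlapped the next in its interval. Macrophage-like cells held 45.2% of its NW and 39.9% of its ABX UMIs through their number. In ABX, endothelial-like cells stood apart at 132 CPM [108, 160], above ILC2-like cells at 35.5. Plasma cell-like cells had 10.1 and 7.96 CPM.

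In endothelial-like cells the log2 ratio of Calcrl was 2.02 [1.18, 2.97], from 13 UMIs in 9 NW cells and 107 UMIs in 32 ABX cells. It was the only 1 of the 2 members counted there that was at least 1.5-fold higher, beside 7.14% of 2311 genes, and none was lower, beside 5.02%. One ABX cell held 25 of the 107 UMIs, and without the richest cell of each library the ratio was 1.995. With cells taken by a gate on marker genes in place of clusters it was 1.42. The Vwf-rich cluster carried most of it, with 7 UMIs in 19 cells of NW (48.4 CPM) and 87 in 50 cells of ABX (254 CPM), while the Car4-rich cluster had 23.7 and 42.9 CPM. Some markers in the Vwf-rich cluster differed between the libraries, on only 19 NW cells. Prox1, of lymphatic endothelium, was in 0% of NW and 10% of ABX cells. Lrg1 was in 36.8% and 60%, Hey1 in 31.6% and 10% and Gja4 in 21.1% and 10%. Others differed less or went the other way within the same vessel type. Gja5 was in 21.1% and 16%, Sox17 in 36.8% and 48%, Selp in 31.6% and 36%, Ackr1 in 21.1% and 20% and Plvap in 73.7% and 74%. The part of this in the Calcrl ratio was not tested. In mature DC-like cells the ratio was the other way, -2.46 [-4.12, -1.17], from 72 and 5 UMIs. Over all DC-like cells it was -0.12 [-0.39, 0.15], in ILC2-like cells 0.10 [-0.26, 0.45] and in CD4 T-like cells -0.55 [-1.01, -0.10].

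**Figure D4:**
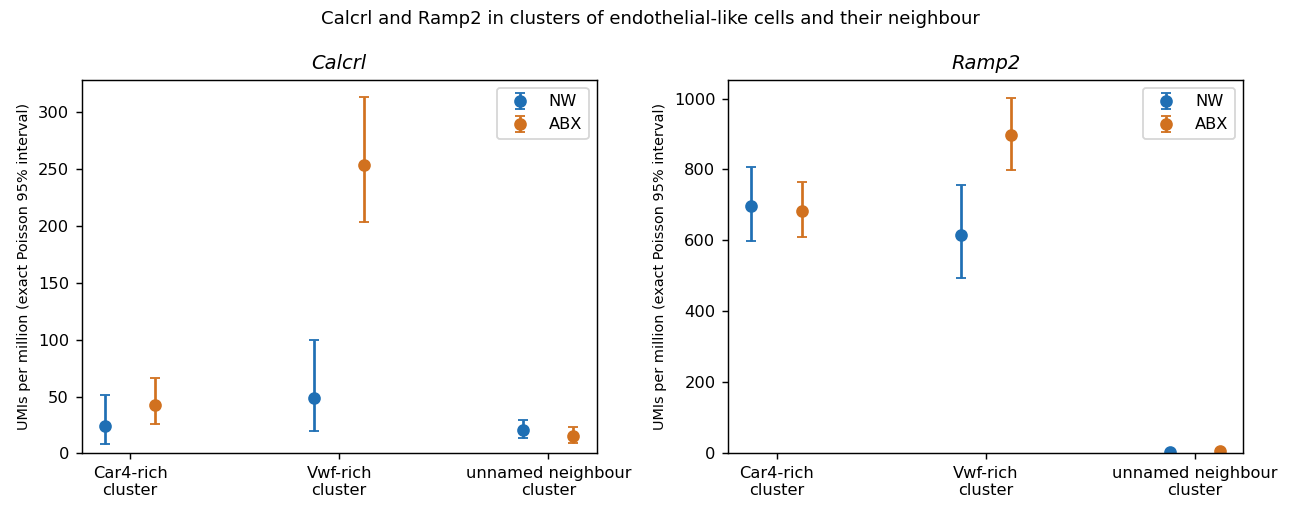
Ramp2 and Calcrl levels (CPM) in the Car4-rich and Vwf-rich second-level clusters of endothelial-like cells, and in the unnamed cluster split from the same first-level cluster, in NW and ABX, with exact Poisson intervals as bars. Calcrl is highest in the Vwf-rich cluster of ABX (254), while Ramp2 lies between 615 and 897 in both endothelial-like clusters and at 2.65 and 6.41 in the unnamed one.

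A receptor needs CALCRL and a RAMP in the same cell, so co-detection was counted over both libraries. Of 41 endothelial-like cells with Calcrl, 38 also held Ramp2 (92.7%), against 118 of 178 without Calcrl (66.3%). The Calcrl-positive cells were deeper, with medians of 7712 against 3613 UMIs, and among cells with at least 5000 UMIs the counts were 30 of 31 and 48 of 54. By library, 8 of 9 Calcrl-positive cells in NW and 30 of 32 in ABX held Ramp2. The adrenomedullin type of pair was thus detected together in endothelial-like cells.

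In ILC2-like cells, 47 of 95 Calcrl-positive cells in NW (49.5%) and 79 of 135 in ABX (58.5%) held Ramp1, the CGRP type of pair, against 50.1% and 46.6% of Calcrl-negative cells. Ramp3 was found in 24.2% and 16.3% of Calcrl-positive ILC2-like cells, and in 21.2% and 22.2% of the others. In Treg-like cells over both libraries, Ramp1 was found in 45.5% of Calcrl-positive and 29.6% of Calcrl-negative cells, with medians of 3867 and 2875 UMIs. Within the depths from 2000 to 5000 UMIs these shares were 34.7% and 28.1%, with overlapping intervals. In mature DC-like cells of NW, 19 of 30 Calcrl-positive cells held Ramp3, against 73 of 149. The exact intervals of Calcrl-positive and Calcrl-negative cells were apart for Ramp1 in ILC2-like cells of ABX and in Treg-like cells of NW, and overlapped in the other library of each class. In both cases the Calcrl-positive cells were the deeper ones, with medians of 3921 against 3411 UMIs and 4138 against 3164. Between 2000 and 5000 UMIs the intervals overlapped in both.

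Nmur1 was an ILC2 gene by its UMIs. ILC2-like cells held 55 of 84 UMIs in NW and 103 of 121 in ABX, at 15.7 CPM [11.9, 20.5] and 22.7 [18.5, 27.5]. A UMI was seen in 6.35% and 6.97% of these cells, against 0.0347% and 0.0399% of macrophage-like cells. The log2 ratio was 0.53 [0.04, 1.03]. Treg-like cells came next, on 14 NW and 3 ABX UMIs. Their NW interval overlapped that of the ILC2-like cells.

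Vipr2 had the same leading class, at almost the same level in both libraries. ILC2-like cells held 88 of 135 UMIs in NW and 114 of 150 in ABX, at 25.2 CPM [20.2, 31.0] and 25.1 [20.7, 30.2], in 8.39% and 7.84% of cells. The log2 ratio was -0.00 with an interval from -0.42 to 0.41. CD4 T-like cells came next in NW with 19 UMIs (5.80 CPM), 14 of them in the Il1rl1-rich cluster, and had 7 UMIs in ABX. Mature DC-like and endothelial-like cells had 0 Vipr2 UMIs in both libraries.

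Among other genes of these pathways, the ligands were scarce in CD45+ cells. Of 44 listed genes, 41 were present in the files. Vip, the ligand of VIPR2, had 3 UMIs in NW and 2 in ABX over all kept cells, Calcb, the second CGRP gene, had 9 and 4, and Th, the first enzyme of noradrenaline synthesis, had 0 and 1. Adm, which encodes adrenomedullin, had 146 and 640 UMIs, of which 147 in ABX lay in B cell-like cells.

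The adrenergic receptors on the list were low as well. Among the 16 classes with at least 50 cells in each library, Adrb1, with 376 and 244 UMIs, was highest in gdT-like cells. Its level there was 19.9 and 23.4 CPM. Adrb3 was highest among them in endothelial-like cells at 10.1 and 16.1 CPM, from 4 and 13 of its 39 and 38 UMIs. Genes of cyclic AMP signalling had a wide range of levels in ILC2-like cells. Gnas, the stimulatory G protein subunit that acts upstream of cyclic AMP, was at 1100.3 and 1042 CPM, and Crem at 156 and 181. Prkaca, a catalytic subunit of protein kinase A, was at 59.8 and 54.4, and the cyclic AMP phosphodiesterase genes Pde4b and Pde4d were at 48.4 and 44.9 and at 23.7 and 24.5. Of 9 listed genes counted in ILC2-like cells, 0 were 1.5-fold higher, beside 2.01% of all genes, and 0 lower, beside 4.44%, with a median log2 ratio of -0.04, beside 0.01 over all genes. In endothelial-like cells 0 of 3 counted were higher, beside 7.14%, and 0 lower, beside 5.02%. With so few genes counted, 0 is near what these shares give.

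Of the 20 ILC2 genes, 18 had at least 100 UMIs in ILC2-like cells over both libraries, and 0 were at least 1.5-fold higher in ABX while 5 were lower: Il5, Areg, Csf2, Cd69 and Nr4a1. Over all genes counted in these cells, 2.01% were as much higher and 4.44% lower. Il5 was at 61.5 CPM in NW and 16.3 in ABX, and Areg, the growth factor amphiregulin, at 48.6 and 9.25. Il13 had 80 UMIs in NW and 7 in ABX, from few cells. A UMI of it was seen in 0% of Calca-positive and 0.843% of Calca-negative cells in NW, and in 0.246% and 0.467% in ABX. Cd69 and Nr4a1, genes induced early after lymphocyte activation, had log2 ratios of -0.73 and -1.13. Fos and Junb, activation genes on the same list with more UMIs, had -0.03 and -0.45, short of 1.5-fold. Calca, with 0.68, thus lay on the other side from the cytokine genes of the same cells. Il1rl1 and Gata3, which mark ILC2, had 0.09 and -0.08.

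The genes whose levels over 16 classes in 2 libraries (32 points) were most like those of each member were ranked by Pearson's r of log2(CPM + 1), as a description of points that share libraries and depth. For Calca they were Dach2 (r = 0.87), Rnf128, Mmp2, Ptpn13 and Htr1b, and for Vipr2 they were Sema3e (0.93), Gm973, Htr1b, AI593442 and Ccr8. For Nmur1 they were Hilpda (0.80), Kcna4, Klf5, Il1rl1 and Gm973. Among the 16 classes, these genes were highest in ILC2-like cells in both libraries, apart from Kcna4, which was highest in Treg-like cells. The smaller fibroblast-like, mural-like and adipocyte-like classes were not part of this ranking. Among the members themselves, Calca and Vipr2 (0.79), Nmur1 and Vipr2 (0.70) and Calca and Nmur1 (0.65) were the most alike.

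For Ramp1 the genes were Ccr2 (0.88), Mapkapk3, Itgb7, Rnf166 and Prdx6, and for Ramp3 they were Pcgf5 (0.88), Aebp2, Vdr, Crem (0.82) and Ahcyl2. Ccr2 encodes a chemokine receptor, Itgb7 an integrin of lymphocytes and Vdr the vitamin D receptor. Crem was thus listed for Ramp3 over classes and was also among the genes highest in Calca-positive ILC2-like cells. For Ramp2 they were Igfbp3 (0.96), Parva, Col8a1, Prss23 and Npr3. All were highest in endothelial-like cells among the 16 classes, which leave out the smaller stromal ones. For Calcrl the likeness was weaker, led by Cmpk1 (0.74), Zfp326, Dld, Pkd2 and Ppm1f.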

How the data were processed

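Single-cell RNA and 10 antibody tags were read from 1 NW and 1 ABX library of CD45+ adipose cells. The values are whole-number UMI counts per cell and gene, deposited by the authors as molecules per cell from the BD Rhapsody pipeline (version 1.8, per the file headers and the study's methods) on GRCm38, and the submitters' processing notes list R 3.6.0, Seurat 3.0.1 and mm10. The authors' pipeline collapsed reads to molecules with an error correction of the UMIs. The files' headers give a different analysis date for each library. The kept cells of the 2 libraries shared 196 barcodes. The headers mark an analysis, not a sequencing batch.

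Cells were kept at 500 UMIs, 200 genes and at most 25% mitochondrial UMIs. The study's methods list 8 antibodies while the files hold 10, and the 8 listed were used for clustering. RNA and antibodies were clustered together with Seurat 5.3.0 (R 4.3.3), with the members and pathway genes left out of the 2000 variable genes, and clusters were named from fixed marker genes. The naming limits were set after the clusters were seen, and 837 NW and 975 ABX cells stayed unnamed. Scrublet (scanpy 1.11.5) marked 344 NW cells (2.76%) but 1 ABX cell, so that call had not worked in ABX. Doublets were kept in the main values, and leaving out cells over the NW limit in both libraries (344 and 324) was an alternative chosen after seeing the data.

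Counts were summed per class and library and given as CPM with exact Poisson intervals, shares with exact Clopper-Pearson intervals and ratios with exact conditional intervals at 95%. These cover counting error only, and UMIs of 1 cell are not independent. There were no replicates and no tests. In comparisons over all genes, a gene was counted with at least 100 UMIs over both libraries (50 in each for Calca-positive against Calca-negative cells) and a 1.5-fold difference. On simulated counts for ILC2-like cells, drawn from the Poisson model that the intervals assume, 95.4% of intervals over 8197 genes held the true ratio. This checks the calculation only, because the simulated counts had no clumping of UMIs within cells.

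The members and gene lists were chosen with earlier results of these data known. Named were all members, the pathway and ILC2 lists, the 5 genes most like each member, with at least 200 UMIs (also for Nmur1 and Vipr2, when both libraries are summed), and the 10 highest and 10 lowest genes by the NW ratio between Calca-positive and Calca-negative cells. The second-level clusters were described by genes chosen after their values were seen. Some items are not reported here. Alternatives were other clusterings, cell filters, scalings, a marker gate and doublet removal. Promoter sequences came from RefSeq, and 6 of the 7 members had an entry.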

Additional observations from a re-analysis of the deposited data

Results flagged for a closer look

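The log2 ratio of ABX over NW for Calcrl was -2.46 in mature DC-like cells and 2.02 in endothelial-like cells, opposite in direction between the classes. The first rested on 72 and 5 UMIs and the second on 13 and 107, of which 25 lay in 1 cell. For Ramp3 the log2 ratio was -1.67 in CD4 T-like cells, 0.98 in gdT-like cells and 0.75 in the unnamed cluster 17 of Cd3e-positive cells. Each class is 1 library per group, so none of these differences between classes was tested.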

How the results depend on the processing

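No paired analysis was possible because each group is 1 library. Of the alternatives recomputed, 174 stayed with the reported result and 10 moved outside its counting interval, toward or away from 0. Another 3 turned a ratio whose interval lay above 0, all 3 for Ramp2 in endothelial-like cells. Staying meant lying within the counting interval, except for 3 recounts of the class with the highest level, which have none. Ratios near 0 whose intervals spanned 0 also took both signs over the alternatives: Ramp1 in ILC2-like cells lay between -0.05 and 0.06, Ramp1 in CD4 T-like cells between -0.34 and 0.09, Vipr2 in ILC2-like cells between -0.08 and 0.07 and Calcrl in DC-like cells between -0.28 and 0.01. The Ramp2 log2 ratio, 0.22 as reported, was -0.0037 with clusters from RNA alone, -0.039 as a mean over cells and -0.028 as thinned shares, and 0.95 with 50 principal components. Its direction therefore depended on the setting. Calca in ILC2-like cells, 0.68 as reported, was 0.52 as a mean over cells and 0.43 as thinned shares. It was 0.54 with one makeup of second-level clusters. These values were higher in ABX but short of 1.5-fold. Its log2 ratio stayed between 0.43 and 0.72 throughout. Ramp1 in macrophage-like cells was 0.63 with clusters from RNA alone and 0.029 with a marker gate. The Ramp3 log2 ratio by Calca was 3.01 within the second of the ILC2-like second-level clusters in NW and 1.79 with 3 or more Calca UMIs in ABX. Ramp3 in CD4 T-like cells was -0.77 with clusters from RNA alone, and in ILC2-like cells 0.09 as thinned shares. The class with the highest level was the same for 13 of 14 members and libraries after thinning or leaving out cells over the shared doublet limit. The exception was Ramp3 in ABX, where gdT-like cells came first. Neutrophil-like cells were the smallest of the 16 classes, and Nmur1 and Vipr2 had the fewest UMIs.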
